A study of Mus musculus with 12 samples.

Results

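The T cell receptor genes of the mouse are described here across 12 RNA-seq libraries of melanoma cells and of T cells from the same kinds of tumor. The members are all rows of the deposited count table whose symbol is that of a T cell receptor variable (V), joining (J) or constant (C) gene of the alpha, beta, gamma or delta chain. There were 249 such rows among 77175. They comprised 113 Trav, 60 Traj, 35 Trbv, 14 Trbj, 7 Trgv, 4 Trgj, 6 Trdv and 2 Trdj rows, and the constant genes Trac, Trbc1, Trbc2 and Trdc with 4 Trgc genes. The rule uses symbols alone and no measured value, though earlier results of these data were known when it was set.

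A T cell receptor of the common type pairs an alpha with a beta chain, and each chain joins a V and a J segment, for beta also a D segment, to a constant region. Segments are joined by DNA recombination in the developing T cell, so that each clone carries its own combination. The chains reach the cell surface together with the CD3 proteins, which carry the signal inward. OT-1 T cells come from a transgenic mouse whose CD8+ T cells carry 1 fixed receptor against a peptide of chicken ovalbumin. That receptor uses V alpha 2, encoded in the Trav14 family, and V beta 5, encoded in the Trbv12 family, with the joining segments Traj33 and Trbj2-7.

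The libraries fall into 4 groups of 3. B16-F10 melanoma cells carried a lentiviral EF1A-driven GCaMP6s, a calcium sensor, and the B16-F10-OVA line carried in addition a lentiviral EF1A-driven ovalbumin. Both were grown in NOD-SCID mice, which lack T and B cells of their own but keep macrophages and some NK cell function, and both kinds of host received OT-1 CD8+ T cells (genotype C57BL/6J-OT-I) that had been activated with anti-CD3/CD28 beads. Tumors were taken 2 days after the transfer. The tumor cell libraries of either label (B16-F10 or OVA) were sorted for GCaMP6s, and the T cell libraries of either label were selected with CD8 beads. The age of the mice is not stated, nor is it stated that the 3 libraries of a group are from separate mice, and p-values here rest on the spread between these libraries, possibly only technical.

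Totals ran from 15494683 to 33263730 counts per library, and levels are given as CPM, the count scaled by its library total, as mean ± SD with n = 3. Summed CPM of 13 T cell markers was 1145 ± 5.75 in B16-F10-labelled T cells and 1208 ± 4.31 in the OVA-labelled ones, against 203.5 ± 1.83 in OVA-labelled tumor cells and 7.15 ± 0.393 in B16-F10-labelled tumor cells. The T cell libraries also held RNA of other cells, with 7984 ± 34.4 and 7300 ± 32.9 CPM over 6 endothelial markers and 4764 ± 49.2 and 4335 ± 36.1 CPM over 6 fibroblast markers (B16-F10 label, then OVA label). Lower T cell numbers and less RNA per T cell cannot be told apart in such bulk samples.

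A comparison of tumor and T cells meets 1 feature of the labels first. Per count of the 4 CD3 chain genes Cd3d, Cd3e, Cd3g and Cd247, the granzyme gene Gzmb stood at 0.775 ± 0.0778 in OVA-labelled tumor cells, 0.670 ± 0.0110 in B16-F10-labelled T cells and 7.37 ± 0.116 in OVA-labelled T cells. The interferon gamma gene Ifng stood at 0.0491 ± 0.00683, 0.0661 ± 0.00504 and 1.43 ± 0.0484 in the same order. Both genes were chosen after their values were seen. On this scale the T cell RNA in the tumor libraries labelled OVA lay near the T cell libraries of the B16-F10 label and far from those of its own label. The labels were taken as given, and every direction between the T cell groups rests on them.

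The counts sat on very few rows. Of the 249 members, 90 had any count, 159 had none in any library, and 20 had at least 10 counts over the 12 libraries. Trac, Trbc1, Trbc2, Trdc, Trbv12-1 and Trav14d-1 held 70585 of the 71674 receptor counts (98.5%). Receptor genes took 0.0639% of all counts in B16-F10-labelled T cells, 0.0485% in OVA-labelled T cells, 0.00850% in OVA-labelled tumor cells and 5.52e-05% in B16-F10-labelled tumor cells. A count in every one of the 6 T cell libraries was found for 15 members.

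The V segments that led both chains are those of the OT-1 receptor's families. They lie on chromosome 6 (Trbv12-1, ENSMUSG00000095574) and chromosome 14 (Trav14d-1, ENSMUSG00000095854). The last 150 bases of each V gene's transcript, next to the point of joining, are shown with a close family member, because these differences decide whether a read can be assigned to 1 row. The sequences are from GENCODE M21 transcripts, 5′ to 3′, and capitals mark bases that differ from the first sequence of each set. Trbv12-2 differs from Trbv12-1 at 14 of these bases, and Trav14-1 and Trav14-3 differ from Trav14d-1 at 5 and 4.
Trbv12-1: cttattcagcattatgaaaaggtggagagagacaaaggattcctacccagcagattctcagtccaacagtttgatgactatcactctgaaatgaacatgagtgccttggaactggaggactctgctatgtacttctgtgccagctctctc
Trbv12-2: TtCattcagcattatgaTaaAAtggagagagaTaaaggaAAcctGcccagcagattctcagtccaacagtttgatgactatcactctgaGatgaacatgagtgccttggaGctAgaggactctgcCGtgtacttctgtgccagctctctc
Trav14d-1: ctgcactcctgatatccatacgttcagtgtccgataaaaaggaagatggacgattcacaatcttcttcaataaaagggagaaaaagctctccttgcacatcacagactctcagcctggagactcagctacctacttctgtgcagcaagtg
Trav14-1: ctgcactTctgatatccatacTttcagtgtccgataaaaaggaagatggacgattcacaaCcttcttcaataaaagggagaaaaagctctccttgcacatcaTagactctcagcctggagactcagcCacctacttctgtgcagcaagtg
Trav14-3: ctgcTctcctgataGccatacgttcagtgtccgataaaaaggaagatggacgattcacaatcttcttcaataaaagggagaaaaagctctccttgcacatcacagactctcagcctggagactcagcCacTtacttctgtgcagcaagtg

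Trbv12-1 shared 0% of its 50-base windows with any other gene of M21. Trav14d-1 shared 38.3% of its 50-base windows and 9.81% of its 100-base windows with other rows of the table, and in M21 every window of it also occurs in Trav14n-1, which has no row in the table used here. A count on Trav14d-1 therefore stands for sequence that Trav14d-1 and Trav14n-1 share, and the split among the other Trav14 copies is uncertain.

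The beta constant genes, Trbc1 and Trbc2 on chromosome 6, are near copies. Over the whole transcripts, 41.1% of the 50-base windows of Trbc1 occur in Trbc2 and 44.0% of those of Trbc2 occur in Trbc1. At 100 bases the shares are 28.7% and 30.9%. How the authors' counting treated reads of more than 1 place is not given in the sources used here, so the split between both genes is uncertain and their sum (Trbc) is used beside them. Trac and Trdc shared 0% of such windows with other genes.

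The J segments could not be used to read clonality. Of 80 J rows, 79 had 0 counts in all libraries, and the remaining row, Trdj1, had 1 count. Those of the OT-1 receptor, Traj33 (57 bases) and Trbj2-7 (47 bases), are shown because their length sets what a read can cover, and capitals mark the codons of the conserved J motif, phenylalanine or tryptophan followed by glycine, any residue and glycine.
Traj33: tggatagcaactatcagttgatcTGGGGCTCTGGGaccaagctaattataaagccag
Trbj2-7: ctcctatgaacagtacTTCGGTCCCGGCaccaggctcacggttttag
The J rows are 29 to 72 bases long for Traj and 46 to 54 for Trbj in M21. No effective number of J segments was computed, and 0 counts here say nothing on which J segments the cells use.

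The alpha V usage was held by Trav14d-1 in every library with T cell RNA. Trav14d-1 took 96.3%, 95.3% and 96.1% of Trav counts in B16-F10-labelled T cells, 96.2%, 95.5% and 94.3% in the OVA-labelled ones, and 94.0%, 95.5% and 93.9% in OVA-labelled tumor cells. The groups overlap. The whole Trav14 family took 96.0% ± 0.546 in B16-F10-labelled T cells and 95.8% ± 0.774 in OVA-labelled T cells, and the difference was within the spread between libraries (exact two-sided permutation test, p = 0.7, adjusted p = 0.737 over 20 measures). Besides Trav14d-1 with 5847 counts, the family's other 6 rows had at most 8 counts each in the T cell libraries.

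The beta V usage was more exclusive still. Trbv12-1 took 99.8%, 99.9% and 99.8% of Trbv counts in B16-F10-labelled T cells and 99.5%, 99.7% and 99.8% in the OVA-labelled ones. In OVA-labelled tumor cells it took 100%, 100% and 99.7%. The Trbv12 family stood at 99.88% ± 0.0686 in B16-F10-labelled T cells and 99.65% ± 0.147 in OVA-labelled T cells, groups that do not overlap, with an exact permutation p of 0.1, the smallest that 3 against 3 libraries allow (adjusted p = 0.133). That difference rests on 9 and 13 counts outside Trbv12-1, of which Trbv12-2 gave 2 and 0, and with rows under 10 counts left out Trbv12-1 is the sole Trbv row.

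**Figure D1:**
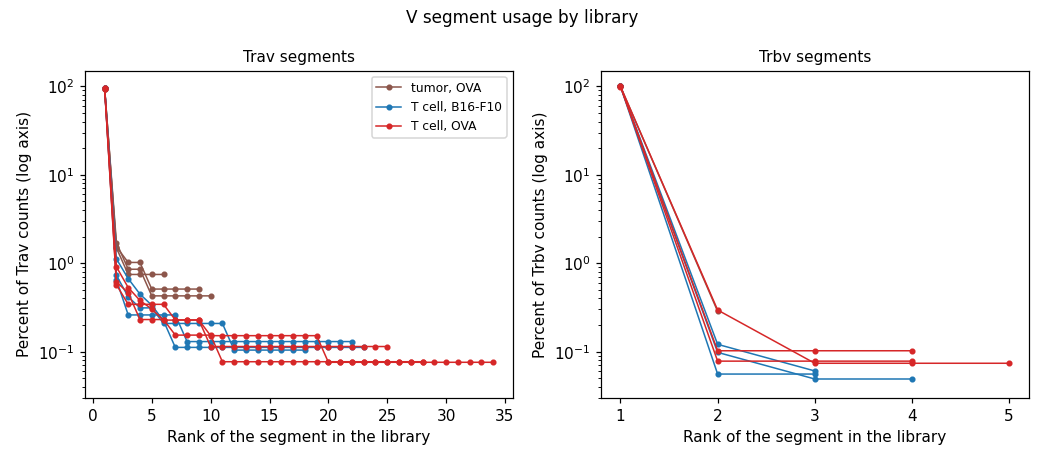
Percent of Trav counts (left) and Trbv counts (right, both on log axes) held by each detected segment, ranked within its library; each line is 1 library of OVA-labelled tumor cells, B16-F10-labelled T cells or OVA-labelled T cells. The first segment lies above 93% for Trav and above 99% for Trbv in all 9 libraries, and no other segment lies above 2%.

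Clonality was summarised as the inverse Simpson effective number, which is 1 when a single segment holds all counts. For Trav it was 1.09 ± 0.0115 in B16-F10-labelled T cells, 1.10 ± 0.0224 in OVA-labelled T cells and 1.12 ± 0.0213 in OVA-labelled tumor cells. The T cell groups differed by less than the spread between libraries (exact permutation test, p = 0.6, adjusted p = 0.667). For Trbv it was 1.003 ± 0.000908 and 1.007 ± 0.00297 in the T cell groups, again without overlap and with an exact permutation p of 0.1 (adjusted p = 0.133). Under either tumor label, 1 segment thus held nearly all counts of its V class.

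A thin set of other Trav segments was present below the leading one. Counts outside Trav14d-1 numbered 36, 42 and 30 in B16-F10-labelled T cells (3.75%, 4.69% and 3.90% of Trav counts) and 49, 39 and 75 in OVA-labelled T cells (3.77%, 4.46% and 5.69%). The exact 95% binomial (Clopper-Pearson) intervals ran from 2.64% to 6.29% over the first group and from 2.80% to 7.08% over the second, so the groups could not be separated at this depth. Intervals of this kind cover counting error only, and PCR copies are not independent molecules.

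These minor Trav counts were spread widely, and included rows with dv in the symbol, which the delta chain can use as well. Over the 6 T cell libraries 58 Trav rows had a count, 31 of them in both groups, 12 in B16-F10-labelled T cells alone and 15 in OVA-labelled T cells alone, and 16 rows had a single count. Thinned to the 134 Trav counts of the shallowest library, the expected number of Trav segments was 5.37 to 6.11 in B16-F10-labelled T cells, 5.54 to 7.57 in OVA-labelled T cells and 6.00 to 7.19 in OVA-labelled tumor cells. The ranges overlap. After Trav14d-1 the highest were Trav21-dv12 with 47 counts in T cell libraries, then Trav19 with 17, Trav16 with 16, and Trav13-4-dv7 and Trav15-2-dv6-2 with 13 each, none above 0.565 CPM in any library. For Trbv, 22 counts fell outside Trbv12-1, on 12 rows, 8 of them with 1 count.

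Annotated pseudogenes took almost none of these counts. Of the 42 member rows that M21 lists as pseudogenes, 4 had a count, 10 in all. None of the 13 Trbv pseudogenes and 3 of the 18 Trav pseudogenes were among the rows with a count.

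Among the receptor genes tested between the T cell groups, Trbc2 had the smallest SE of the log2 fold change. Trbc2, a beta constant region, stood at 288 ± 2.57 CPM in B16-F10-labelled T cells (287, 290.4 and 285 in the libraries) and at 190.1 ± 1.35 CPM in OVA-labelled T cells (191, 189 and 190.4). All libraries of the OVA label lay below all of the B16-F10 label, by 0.54 on the log2 scale (SE 0.0187, edgeR adjusted p = 6.04e-19). Trbc1, its near copy, stood at 59.8 ± 2.33 CPM (57.1, 61.1 and 61.1) and 56.5 ± 0.0758 CPM (56.4, 56.6 and 56.4) in the same order. The groups of Trbc1 did not overlap in CPM, yet the log2 fold change of -0.02 (SE 0.0371) did not pass the test (edgeR adjusted p = 0.657). Scaled to the CD3 chains it was -0.27 and passed (adjusted p = 8.70e-07).

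Trac, the alpha constant region on chromosome 14, went the other way. It stood at 84.7 ± 3.51 CPM in B16-F10-labelled T cells (86.5, 80.6 and 86.9) and 96.0 ± 1.604 CPM in OVA-labelled T cells (94.2, 97.1 and 96.8), without overlap. The log2 fold change was 0.24 (SE 0.0312, edgeR adjusted p = 4.35e-07), but it was -0.01 (adjusted p = 0.835) when libraries were scaled to the 4 CD3 chains, a scaling that moved the median of all genes to -0.25. The alpha direction therefore holds for levels per total RNA and not per summed CD3 chain count. By mean CPM, OVA label over B16-F10 label, Trac stood at 1.13-fold. Of the CD3 chains Cd247 stood at 1.62-fold, Cd3e at 1.23-fold, Cd3d at 1.01-fold and Cd3g at 0.943-fold. The direction of Trac per CD3 chain thus depends on which chains are counted.

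The leading V segments moved in the direction of Trbc2 and Trac. Trbv12-1 stood at 104 ± 2.83 CPM in B16-F10-labelled T cells (105, 101 and 106) and 55.4 ± 1.23 CPM in OVA-labelled T cells (55.5, 56.6 and 54.2). The OVA label lay lower in every library, by 0.86 on the log2 scale (SE 0.0323, edgeR adjusted p = 3.95e-18). Trav14d-1 stood at 47.9 ± 0.253 CPM (47.9, 48.2 and 47.7) and 51.0 ± 2.14 CPM (51.6, 48.6 and 52.8). Its log2 fold change of 0.15 (SE 0.0409, edgeR adjusted p = 0.00355) became -0.10 (adjusted p = 0.0483) with the CD3 scaling.

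**Figure D2:**
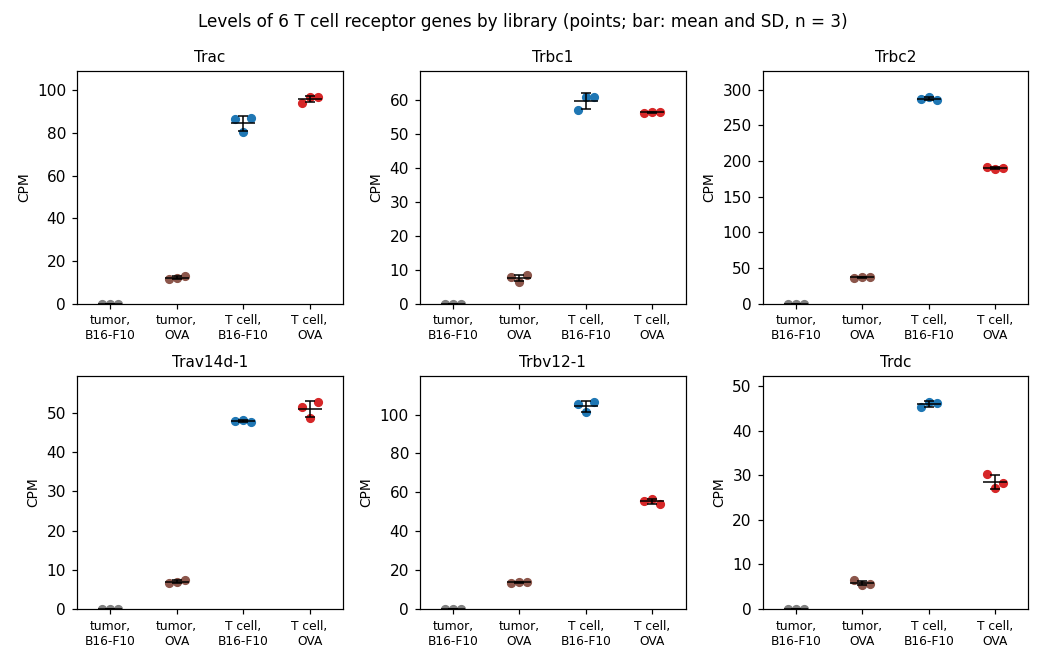
Levels in CPM (linear axes from 0) of Trac, Trbc1, Trbc2, Trav14d-1, Trbv12-1 and Trdc in the 12 libraries; points are libraries, and bars give the mean and SD of each group (n = 3). Trbc2, Trbv12-1 and Trdc are lower in OVA-labelled T cells than in the B16-F10-labelled ones, Trac is higher, and B16-F10-labelled tumor cells lie at or near 0.

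Genes of the gamma and delta chains, which make the receptor of a separate T cell lineage, were present at lower levels per length. The Trd genes lie inside the Tra locus and are removed from a chromosome when its alpha segments join. Trdc stood at 45.9 ± 0.666 CPM in B16-F10-labelled T cells (45.2, 46.4 and 46.2) and 28.5 ± 1.63 CPM in the OVA-labelled ones (30.3, 27.1 and 28.2). Every library of the OVA label was lower, with a log2 fold change of -0.62 (SE 0.0485, edgeR adjusted p = 2.26e-11). In M21 a Trdv5 and a Gm43434 gene overlap Trdc on the other strand, and the strand setting of the counting is not given in the sources used here, so the counts of Trdc and Trdv5 are uncertain.

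The gamma constant genes followed at a few CPM. Trgc2 stood at 2.18, 2.09 and 2.84 CPM in B16-F10-labelled T cells and 1.36, 1.45 and 1.06 CPM in OVA-labelled T cells, a fall of 0.82 on the log2 scale (SE 0.222, edgeR adjusted p = 0.00339). Trgc4 stood at 1.66, 1.92 and 2.45 CPM against 1.48, 1.45 and 1.53 CPM, and its log2 fold change of -0.36 (SE 0.220) did not pass the test (edgeR adjusted p = 0.191), but did with the CD3 scaling (-0.60, adjusted p = 0.0189). Trgc1 had 9 counts in each T cell group, and Trgc3 had counts in B16-F10-labelled T cells alone. Trgc2 shares 25.4% of its 50-base windows with the other gamma constant genes, and Trgc4 shares 0%.

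Rows named only as V segments of the delta or gamma chain had few counts. Trdv5, Trdv2-2, Trdv4 and Trdv1 summed to 27, 25, 20 and 19 counts in B16-F10-labelled T cells and 25, 21, 18 and 12 in OVA-labelled T cells, with no single segment leading. Trgv2 had 29 and 20 counts. Trav rows with dv in the symbol, which the delta chain can use as well, are not in these counts. The highest of them, Trav21-dv12, had 22 counts in B16-F10-labelled T cells and 25 in OVA-labelled T cells. Summed CPM of 7 gamma delta T cell markers was between 50.2 and 53.8 under the B16-F10 label and between 44.9 and 48.5 under the OVA label. Of that sum Sox13 gave 48.9 ± 1.96 and 45.0 ± 1.63 CPM, Il17a was at 0 in the first group, and Cd163l1, 5830411N06Rik, Blk and Il23r were each below 1.5 CPM on average. Summed CPM of 4 CD4 and regulatory T cell markers, none of them at 0, was between 58.7 and 61.2 under the B16-F10 label and between 26.3 and 27.3 under the OVA label. Of that sum Ikzf2 gave 41.8 ± 0.608 and 12.6 ± 1.02 CPM, Cd4 14.5 ± 0.741 and 11.9 ± 0.333, Foxp3 3.68 ± 0.550 and 1.87 ± 0.702, and Cd40lg 0.133 ± 0.0214 and 0.563 ± 0.163. In B16-F10-labelled and then OVA-labelled tumor cells, Ikzf2 stood at 8.80 and 8.49 CPM and Cd4 at 0.0444 and 15.5. Foxp3 stood there at 0.130 and 0.831 CPM and Cd40lg at 0 and 0.0200. Whether gamma delta, CD4 or regulatory T cells were present was not tested, nor was their part in the lower Trbc2, Trbv12-1, Trdc and Trgc2 levels.

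Across the receptor genes, 8 of 249 members had enough counts to be tested in the T cell comparison. Of these, 4 were lower (Trbc2, Trbv12-1, Trdc and Trgc2), 2 were higher (Trac and Trav14d-1) and 2 were not called. Their median log2 fold change was -0.45, against -0.01 over all 16536 genes tested. In that comparison 46.1% of all genes were called, 23.7% higher and 22.4% lower, so calls as such were common. All 6 calls were also made by DESeq2.

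Levels of different genes were compared per kilobase of M21 exon length. In B16-F10-labelled T cells, Trbc2 had 416 CPM per kb, Trbv12-1 268, Trav14d-1 115, Trac 90.6, Trbc1 79.8, Trdc 11.9, Trgc2 2.59 and Trgc4 2.04. In OVA-labelled T cells the order was Trbc2 at 275 CPM per kb, Trbv12-1 at 142, Trav14d-1 at 123, Trac at 103, Trbc1 at 75.4, Trdc at 7.38, Trgc4 at 1.51 and Trgc2 at 1.41. The orders differ only between Trgc2 and Trgc4. Their library ranges overlap in both groups, although Trgc2 was above Trgc4 in each B16-F10-labelled T cell library. Trdc has the longest annotated exons of these 8 genes, 3865 bases, and its place in the order depends on that length.

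Ratios within a library do not depend on the scaling between libraries. The ratio of Trac to Trbc counts was 0.251, 0.229 and 0.251 in B16-F10-labelled T cells and 0.380, 0.396 and 0.392 in OVA-labelled T cells. No library of the first group reached the second, and the exact permutation p was 0.1, the smallest that 3 against 3 libraries allow (adjusted p = 0.133). The same p and adjusted p hold for each ratio below whose T cell groups do not overlap. The ratio of Trav to Trbv counts was 0.479 ± 0.0183 and 0.962 ± 0.0674, a 2.01-fold difference, so V segments and constant regions shifted the same way.

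Within the beta chain the balance changed as well. The ratio of Trbc2 to Trbc1 was 4.82 ± 0.191 in B16-F10-labelled T cells and 3.37 ± 0.0284 in OVA-labelled T cells, without overlap. Trbv counts per Trbc count were 0.301 ± 0.0112 and 0.226 ± 0.00586, also without overlap. Trav counts per Trac count were 0.591 ± 0.0313 and 0.557 ± 0.0289, groups that overlap (exact permutation test, p = 0.4, adjusted p = 0.5). By textbook knowledge J beta segments of the second cluster, to which Trbj2-7 belongs, splice to Trbc2.

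Per CD3 chain count, the T cell groups separated for the beta constant regions and overlapped for Trac. Trbc stood at 1.80 ± 0.00928 per CD3 chain count in B16-F10-labelled T cells and 1.12 ± 0.00845 in OVA-labelled T cells, without overlap. Trac stood at 0.454, 0.410 and 0.450 against 0.428, 0.444 and 0.435, groups that overlap (exact permutation test, p = 0.9, adjusted p = 0.9). The Trac difference of -0.00236 ranged from -0.0164 to 0.00558 with 1 library left out. Trav did separate, at 0.258 ± 0.00217 and 0.242 ± 0.00927, with the p and adjusted p given above. The Trav difference was negative here but positive with the T cell marker list as denominator. Trdc separated as well, at 0.237 ± 0.00176 and 0.129 ± 0.00718, and so did Trbv, at 0.540 ± 0.0223 and 0.252 ± 0.00807, and Trbc1, at 0.309 ± 0.00889 and 0.256 ± 0.00265.

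The tumor libraries labelled OVA carried the same receptor genes. There Trac stood at 0.451 ± 0.0258 per CD3 chain count, Trbc at 1.64 ± 0.0935, Trbv at 0.508 ± 0.0361 and Trdc at 0.215 ± 0.0250. The Trbv and Trdc values overlap those of B16-F10-labelled T cells and not those of OVA-labelled T cells, while the Trbc values lie between both groups and overlap neither. Trac overlaps both.

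**Figure D3:**
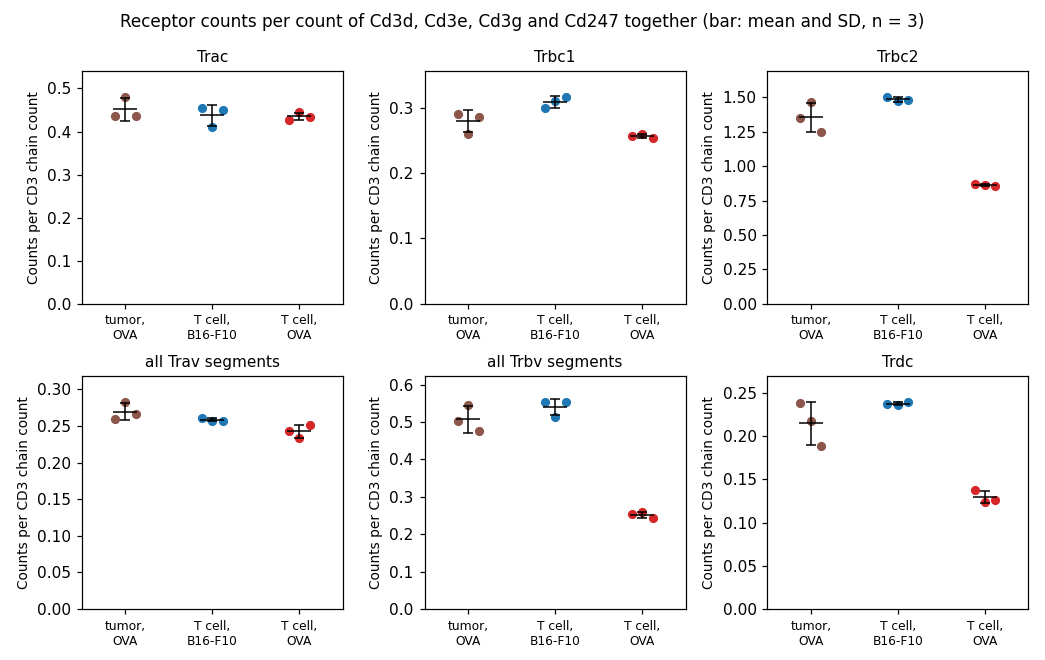
Counts of Trac, Trbc1, Trbc2, all Trav, all Trbv and Trdc per count of the 4 CD3 chain genes together (linear axes from 0) in OVA-labelled tumor cells, B16-F10-labelled T cells and OVA-labelled T cells; points are libraries, bars the mean and SD (n = 3). Trbc2, Trbv and Trdc are lowest in OVA-labelled T cells, and Trac has overlapping values in the 3 groups.

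Between the tumor groups, receptor RNA was far higher under the OVA label. B16-F10-labelled tumor cells had 35 receptor counts in their 3 libraries, and the OVA-labelled ones had 6537. Trbc2 had 0 counts against 36.7, 37.0 and 37.1 CPM, at least 780-fold higher in the OVA label, with a floor of 3 counts over the group at 0. Trac, at 0 against 11.8, 12.2 and 13.0 CPM, was at least 259-fold higher, and Trbv12-1, at 0 against 13.6, 13.8 and 14.0 CPM, at least 292-fold higher.

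Another 3 genes had 1 or 2 counts in B16-F10-labelled tumor cells. Trav14d-1 had 1 count against 532, a ratio of 439 with an exact 95% counting interval of 78.5 to 17372. Trbc1 had 2 against 596 counts, a ratio of 246 (67.8 to 2035), and Trdc 2 against 457, a ratio of 189 (51.9 to 1562). All 6 members tested were called higher by edgeR, where 42.0% of 17418 genes were called higher and 37.4% lower, but they entered the test through the group where they are high and their count is no support. Summed CD3 chain CPM moved with them, between 0 and 0.470 under the B16-F10 label and between 25.3 and 29.7 under the OVA label, as did 8 macrophage markers (12.2 to 12.7 against 1668 to 1677 CPM, none at 0). Endothelial markers (6) moved too, from 1.79 to 2.26 against 3110 to 3130 CPM, with Cldn5 and Emcn at 0 under the B16-F10 label, as did 6 fibroblast markers, from 75.3 to 81.5 against 1856 to 1874 CPM. Summed CPM of 6 melanoma markers was lower under the OVA label, 8886 to 8914 against 21015 to 21116. The part of other cells carried through the sort in these values was not tested.

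One V segment went against this pattern and was chosen after its values were seen. Trav4-4-dv10 had 12, 8 and 8 counts in B16-F10-labelled tumor cells, which is 28 of their 35 receptor counts. It had 0 counts in OVA-labelled tumor cells, so that it was at least 11.3-fold higher in the B16-F10 label, and 0 to 2 counts in each T cell library. It was at 0.564, 0.345 and 0.422 CPM and did not pass the filter on low counts of the main fit. No gene overlaps it in M21.

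T cell libraries exceeded tumor libraries under both labels for the 9 members tested, which entered the test through the T cell libraries, so that their number is no support. Under the B16-F10 label all 9 were called higher (45.5% of all genes were), with Trbc2 at least 6084-fold, Trbv12-1 at least 2205-fold and Trac at least 1790-fold higher. Under the OVA label all 9 were called higher too (37.3% of all genes were, and 40.2% were called lower). There the log2 fold changes were 3.10 for Trac (SE 0.0454), 3.01 for Trav14d-1 (SE 0.0575), 3.00 for Trbc1 (SE 0.0617), 2.50 for Trbc2 (SE 0.0245), 2.40 for Trdc (SE 0.0701) and 2.13 for Trbv12-1 (SE 0.0457). Trgc2, Trgc4 and Trdv5 followed at 2.48, 2.30 and 1.79.

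Ratios of mean CPM set both T cell groups against the tumor libraries labelled OVA. B16-F10-labelled T cells exceeded those tumor libraries 6.88-fold for Trac, 6.90-fold for Trav14d-1, 7.55-fold for Trbv12-1, 7.79-fold for Trbc2, 7.82-fold for Trbc1 and 7.86-fold for Trdc. OVA-labelled T cells exceeded the same libraries 7.80-fold for Trac, 7.34-fold for Trav14d-1, 4.01-fold for Trbv12-1, 5.15-fold for Trbc2, 7.39-fold for Trbc1 and 4.87-fold for Trdc. Both sets share the tumor libraries, so they are set side by side without a test. Of the CD3 chains, in the same order of T cell groups, Cd3d exceeded them 7.87-fold and 7.96-fold, Cd3e 6.16-fold and 7.59-fold, Cd3g 8.08-fold and 7.62-fold, and Cd247 6.28-fold and 10.2-fold.

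The difference between the OVA effects, T cells against tumor cells, was negative for all 9 members tested (41.3% of all genes were called lower by edgeR). It is set by the tumor libraries of the B16-F10 label, which are at or near 0 for each member, so its fitted size depends on the prior count and is not given. Trac and Trav14d-1 were higher per total RNA under the OVA label in both cell fractions (in T cells not per summed CD3 chain count). Trbc2, Trbv12-1 and Trdc were higher in tumor but lower in T cell libraries. For each of these genes the interaction passed the test, with edgeR adjusted p from 3.35e-18 for Trav14d-1 to 4.74e-27 for Trbc2.

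Other genes of the receptor pathway were read from a list of 28, of which 26 were tested in T cells. Of these, 10 were higher under the OVA label, 10 were lower and 6 were not called, with a median log2 fold change of -0.02 against -0.01 over all genes. The background of called genes is 46.1%, as above. With the CD3 scaling the split was 5 higher, 17 lower and 4 not called. Cblb, Cbl, Cd8a and Runx3, higher per total RNA, turned to between -0.14 and -0.03. The same scaling called 10833 of all 16536 genes and moved their median to -0.25, so the shift is not particular to the pathway genes.

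Among the surface partners, Cd247, the zeta signalling chain, rose by 0.76 on the log2 scale (SE 0.0514, edgeR adjusted p = 1.47e-12), from 24.6, 26.9 and 24.3 to 42.2, 39.6 and 41.1 CPM. Cd3e rose by 0.36, while Cd3d at 0.07 and Cd3g at -0.03 did not pass the test. The CD8 coreceptor genes Cd8b1 and Cd8a rose by 0.62 and 0.18 (Cd8a at -0.06 with the CD3 scaling), and Cd4 fell by 0.23. Trat1, an adaptor that binds the receptor complex, fell from 2.69, 1.86 and 2.58 to 0.124, 0.116 and 0.127 CPM.

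The proximal signalling genes split. Zap70, the kinase recruited to the zeta chain, rose by 0.80 (SE 0.0420, edgeR adjusted p = 5.50e-15), and the adaptor gene Lcp2 rose by 0.47. The phospholipase gene Plcg1 fell by 0.25, the adaptor gene Lat by 0.26 and the kinase gene Fyn by 0.13. Lck, the kinase bound to the coreceptors, stood at -0.06 and did not pass the test. The ubiquitin ligase genes Cblb and Cbl, which dampen the signal, rose by 0.21 and 0.10, and stood at -0.03 and -0.14 with the CD3 scaling. In B16-F10-labelled tumor cells Plcg1 stood at 135 CPM, Cbl at 95.4, Fyn at 74.1 and Cblb at 25.7. Lck stood there at 4.05 CPM, Lat at 1.89, Lcp2 at 0.173 and Zap70 at 0.0157. The part of cells other than T cells in these differences was not tested.

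Transcription factors of the T cell lineage moved in both directions. Tcf7, a factor of naive and memory T cells, fell from 61.5, 62.0 and 62.7 to 15.0, 16.1 and 14.6 CPM (log2 fold change -1.98, SE 0.0498, edgeR adjusted p = 4.87e-22). Bcl11b fell by 0.74, Lef1 by 0.45 and Gata3 by 0.23. Runx1 and Runx3, which act at receptor and coreceptor genes, rose by 0.29 and 0.13 (Runx1 at 0.04, adjusted p = 0.270, and Runx3 at -0.12 with the CD3 scaling), and Ets1 did not pass the test. In B16-F10-labelled tumor cells Ets1 stood at 786 CPM, Runx1 at 39.4 and Tcf7 at 9.99. Gata3 stood there at 0.295 CPM, Lef1 at 0.0639, Runx3 at 0.0470 and Bcl11b at 0.0176. The part of cells other than T cells was not tested for these genes either.

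Of the genes that join receptor segments, Rag1 and Rag2 were at or near 0 and Dntt stood at a few CPM. Rag1 and Rag2, the recombinase, stood at most at 0.155 and 0.0424 CPM in any T cell library and were not tested. Dntt, which adds bases at the joints, stood at 3.73, 3.22 and 3.94 CPM in B16-F10-labelled T cells and 3.17, 2.62 and 2.54 CPM in the OVA-labelled ones, without passing the test (edgeR adjusted p = 0.117). Ptcra, the surrogate alpha chain of immature T cells, did not pass either, at 0.254 to 1.10 CPM.

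**Figure D4:**
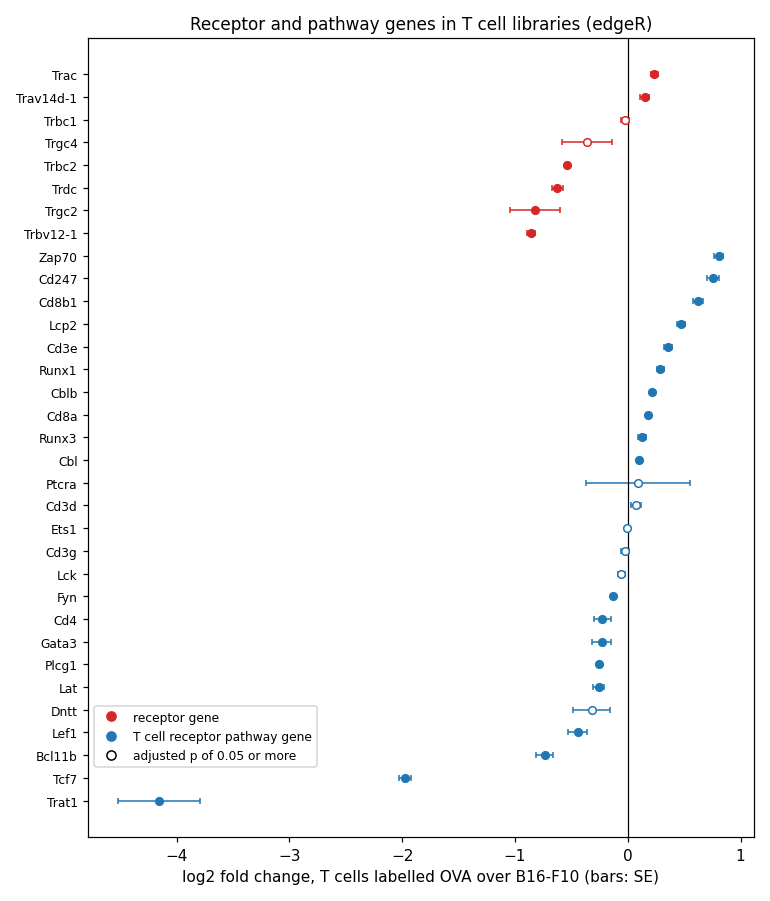
Log2 fold changes with SE (edgeR) of the 8 tested receptor genes (red) and of tested pathway genes named in the text (blue), OVA-labelled T cells over the B16-F10-labelled ones; open points have an adjusted p of 0.05 or more. Trbv12-1, Trgc2, Trdc and Trbc2 lie below 0 and Trac and Trav14d-1 above, within the span of the pathway genes from Trat1 to Zap70.

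In the other comparisons most pathway genes tested were called higher, in lists that had first to pass the filter on low counts, so that their number is no support. Between the tumor groups 22 of 24 tested genes were higher under the OVA label (42.0% of all genes were), 1 was lower (Plcg1, log2 fold change -0.42) and Ets1 did not pass the test. Under the OVA label 23 of 26 were higher in T cells than in tumor cells (37.3% of all genes were), Cd4 was lower (-0.25), and Trat1 and Ptcra did not pass. Cd4 stood at 15.5 ± 0.621 CPM in OVA-labelled tumor cells against 11.9 ± 0.333 CPM in OVA-labelled T cells.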

How the data were processed

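Bulk poly(A) RNA-seq gave raw counts per Ensembl gene, deposited by the authors in 1 table of 12 libraries. Per the submitters' processing notes, reads were aligned with HISAT2 2.0.5 to GRCm39 and counted with featureCounts 1.6.0. Strand, multimapping and annotation release are not given in the sources used here. All count columns were used.

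Members were taken by symbol, and all 249 matched GENCODE M21, of build GRCm38, by Ensembl identifier. M21 gave lengths, overlaps, chromosomes and transcript sequences. No coordinates are given because the builds differ. CPM divides by library totals. Tests used edgeR 4.0.16 (R 4.3.3): filterByExpr, TMM, quasi-likelihood F tests and Benjamini-Hochberg adjustment over all genes with a threshold of 0.05, on the 6 libraries of a cell fraction, or on all 12 for other comparisons. SE was derived from the F statistic. Scripts were tested on simulated data. Shares and ratios used exact two-sided permutation tests over libraries.

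Every pair of libraries in a group differed beyond counting noise (chi-square per degree of freedom 1.50 to 1.72), so none was counted as a duplicate. The replicate numbers did not pair samples.

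Named genes are the constant genes, the Trav14 and Trbv12 family rows and the 5 highest rows of each V and J class with at least 10 counts, called members and the 28 pathway genes. A few items are not reported here. Members and lists were chosen with earlier results of these data known. Alternatives were DESeq2 1.42.0, median-ratio factors, library totals, other filters, a replicate block, CD3 scaling, other denominators, a Shannon number, merged segment copies and leaving out each library.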

Additional observations from a re-analysis of the deposited data

Results flagged for a closer look

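For each of the 9 receptor genes tested over all 12 libraries, the effect of the OVA label differed between the T cell and the tumor cell libraries by edgeR's interaction test. The adjusted p was 6.27e-18 for Trbc1, 4.74e-27 for Trbc2, 3.07e-19 for Trac, 1.43e-22 for Trbv12-1, 3.35e-18 for Trav14d-1 and 8.63e-19 for Trdc. It was 6.14e-06 for Trgc2, 4.70e-06 for Trgc4 and 0.00462 for Trdv5. All 9 rest on tumor cells labelled B16-F10 at 0 to 2 counts per gene over the group. They passed the filter through the groups where they are high, so their number is no support. Of all 18562 genes, 69.0% were called in this comparison.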

How the results depend on the processing

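The count of called receptor genes in the T cell comparison was 6 in every alternative except the CD3 scaling (7, all lower). Of the 7 calls with the CD3 scaling, 5 were also made in the main fit, but Trav14d-1 was called higher there. That scaling called 10833 of all 16536 genes, against 7623 in the main fit, and moved their median to -0.25. It turned Trac to -0.00910 and Trav14d-1 to -0.10 on the log2 scale. Leaving out each library kept 6 calls in the T cell and 6 in the tumor comparison, and gave 10 to 12 calls against 9 in the other 3 comparisons. Without a filter 11 of 37 members tested were called between the tumor groups, where 16405 of 40584 genes were called. Of these 11 members, 10 were higher and 1 was lower under the OVA label. Between T cells and tumor cells 19 of 90 were called under the B16-F10 label (18543 of 44809 genes). Under the OVA label 16 of 90 were called (15290 of 44809 genes). For the difference between the OVA effects 14 of 90 were called (13388 of 44809 genes). DESeq2 called 18 of the 21 members with an adjusted p under the B16-F10 label, and 17394 genes in all. More members are tested in these fits. With the replicate block, T cell calls stayed at 6, and Trbc2 at -0.54, and no call changed. The OVA minus B16-F10 difference in the Trav14 share (-0.229 percentage points) was 0.0643 without rows under 10 counts and -0.594 to 0.177 with a library left out. For Trav14d-1 alone the same values were 0.0643 and -0.957 to 0.00145. The difference in the Trav effective number (0.0121) was -0.00137 without those rows and -1.46e-05 to 0.0221 with a library left out, positive in all but the fit without replicate 3 of T cells labelled OVA. With the T cell marker list as denominator, the differences were 0.00552 for Trac (-0.0164 to 0.00558 per CD3 chain count with a library left out) and 0.000608 for Trav. The causes were not tested. Depth limits the minor V segments, with 3 counts over a group amounting to 0.0390 to 0.0572 CPM.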
